A study of Drosophila melanogaster with 12 samples.

Results

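A group of 8 genes with names of their own were followed here because they were lower in every mutant group than in wild-type eye discs: Mec2, fat-spondin, Glt, Spn47C, Gal, stv, regucalcin and gkt. They are 8 of the 11983 genes measured. RNA of eye discs, dissected from Drosophila melanogaster larvae in the third instar, was read on Affymetrix arrays, with 3 arrays per group. The 4 groups were Canton S, a wild-type laboratory strain, and the genotypes rbf120a, wtsX1Lats and rbf120a wtsX1Lats, called the double mutant below. The first allele is in Rbf, a retinoblastoma family gene, and the second in warts (wts), whose kinase belongs to the Hippo pathway. Per the series' design text the mutant discs were mosaic, with mutant cells making up most of the tissue. Canton S carries neither allele, so an allele and any other difference between the strains cannot be told apart. The labels call the arrays biological replicates without giving the number of animals behind each, so the p-values measure the spread between these arrays.

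The 8 genes were chosen by their values in the 3 comparisons with Canton S. Those comparisons share the same 3 Canton S arrays, and for these genes they are given as a description, with no test. Across all genes, 133 (1.11%) were lower in all 3 mutant groups with an adjusted p under 0.05 in each, from limma with Benjamini-Hochberg adjustment over the 11983 genes. Of these 133 genes, 64 have a name of their own, and 7 of the 8 genes are among them. Spn47C lies just outside, with its largest adjusted p at 0.0625, in wtsX1Lats. Just inside that threshold lie Men, t, regucalcin and GrlHz, with largest adjusted p of 0.0472, 0.0442, 0.0405 and 0.04. Just outside lie vkg, Sid, Sidpn and MED11, at 0.0503, 0.0511, 0.0552 and 0.0611.

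A larval eye disc is an epithelium bathed in hemolymph, the insect's circulating fluid. The fat body, which serves as liver and adipose tissue, secretes many hemolymph proteins, and blood cells circulate in it, settle on tissues, clear debris and deposit basement membrane. RNA of a disc preparation therefore comes from disc cells and from any adhering fat body, blood cells or other tissue. In such bulk samples, fewer cells of a type and less RNA per cell cannot be told apart. The 8 genes encode products of several kinds. Glt (Glutactin), fat-spondin and the serpin Spn47C belong to families of secreted proteins, Mec2 is a membrane protein of the stomatin family, Gal is a lysosomal beta-galactosidase, and stv, regucalcin and gkt act inside cells.

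All values are log2 signals, so a difference of 1 is a factor of 2. The tissue label was checked against 12 eye disc genes (ey, toy, so, eya, dac, gl, ato, sens, ro, sev, elav and Optix). The mean of each lay above the median of all values, 5.79, in every group. Of these 0, 4 and 4 fell and 0, 1 and 2 rose against Canton S in rbf120a, wtsX1Lats and the double mutant. Among all genes, 1.71%, 3.33% and 3.26% fell and 1.79%, 2.28% and 2.23% rose. As a sign of RNA quality, the control probe sets at the 3' end of actin, GAPDH and eIF-4a exceeded those at the 5' end by 1.70, 1.81 and 1.90 in wtsX1Lats replicate 3. The highest values in the other 11 arrays were 0.82, 1.43 and 0.95.

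Glt encodes Glutactin, a glycoprotein of basement membranes related to cholinesterases. It was measured by 1 probe set, 1630515_s_at (CG9280, arm 2L). Glt stood at 10.32, 10.27 and 10.16 in Canton S replicates 1, 2 and 3, and at 7.36, 7.65 and 7.22 in rbf120a. It was at 7.49, 7.52 and 7.37 in wtsX1Lats and at 8.07, 7.68 and 7.58 in the double mutant. The lowest Canton S array lay 2.10 above the highest mutant array, the widest such gap among the 8 genes, and the mutant arrays spanned 0.85. The change against Canton S was -2.84 ± 0.15 (SE of the fit), -2.79 ± 0.15 and -2.47 ± 0.15 for rbf120a, wtsX1Lats and the double mutant, which is 7.15, 6.91 and 5.56 times lower.

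fat-spondin is a secreted matrix protein of the spondin family, named for its expression in the fat body. Its probe set, 1629572_a_at (CG6953, arm 2R), gave 9.05, 8.93 and 8.80 in Canton S and 6.11, 6.00 and 5.91 in rbf120a. In wtsX1Lats the arrays read 7.23, 6.12 and 5.34, and in the double mutant 6.22, 6.15 and 6.10. The rbf120a and double mutant arrays were close together (SD 0.10 and 0.06), whereas those of wtsX1Lats spread (SD 0.95), with replicate 1 high and replicate 3 low. Against Canton S the changes were -2.92 ± 0.34 (SE), -2.70 ± 0.34 and -2.78 ± 0.34 in rbf120a, wtsX1Lats and the double mutant. The means of these groups, 6.01, 6.23 and 6.15, lie near the median of all values. Without detection calls it is not known whether they are above background, so no fold is given.

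Spn47C encodes a serpin, a family in which many members are secreted inhibitors of proteases. Its probe set, 1623612_at (CG7722, arm 2R), gave 10.30, 10.78 and 10.14 in Canton S and 6.78, 7.49 and 8.61 in rbf120a. The wtsX1Lats arrays gave 6.54, 8.90 and 9.31, and the double mutant arrays 7.22, 6.81 and 6.83. All mutant arrays lay below Canton S, but the mutant arrays covered 2.77, the widest range among the 8 genes. The changes were -2.78 ± 0.61 (SE), -2.16 ± 0.61 and -3.45 ± 0.61 for rbf120a, wtsX1Lats and the double mutant. In wtsX1Lats replicate 1 alone was near the double mutant's level, and without it the change in that group was -1.30.

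Mec2 encodes a membrane protein of the stomatin family, to which mammalian podocin also belongs. With probe set 1630375_at (CG7635, X chromosome) it read 9.42, 9.32 and 8.42 in Canton S and 5.93, 5.92 and 5.54 in rbf120a. In wtsX1Lats it read 7.36, 5.76 and 5.42, and in the double mutant 6.68, 6.22 and 6.03. The lowest Canton S array lay 1.06 above the highest mutant array, although Canton S replicate 3 was low and wtsX1Lats replicate 1 high. Among the mutants, wtsX1Lats overlapped both rbf120a and the double mutant. The changes were -3.26 ± 0.43 (SE), -2.87 ± 0.43 and -2.74 ± 0.43 in the same order as above. The mutant means, 5.796, 6.18 and 6.31, lie near the median of all values, and without detection calls it is not known whether they are above background, so no fold is given.

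Gal encodes a lysosomal beta-galactosidase, which removes terminal galactose from glycans. Its probe set, 1633914_at (CG9092, arm 2L), gave 9.76, 8.98 and 9.34 in Canton S and 7.34, 6.95 and 6.77 in rbf120a. In wtsX1Lats it gave 7.85, 6.82 and 6.18, and in the double mutant 7.09, 7.27 and 6.84. The lowest Canton S array was 1.12 above the highest mutant array. The mean changes were close to each other at -2.34 ± 0.35 (SE), -2.40 ± 0.35 and -2.29 ± 0.35.

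Starvin, the product of stv, is a BAG-domain co-chaperone that binds Hsc70 and is known for its role in muscle. Its probe set, 1634364_s_at (CG32130, arm 3L), gave 9.67, 10.15 and 9.57 in Canton S and 7.49, 7.31 and 7.70 in rbf120a. The wtsX1Lats arrays gave 7.57, 6.84 and 7.57, and the double mutant arrays 7.41, 7.40 and 7.09. The gap between Canton S and the mutant arrays, 1.87, was more than the mutant arrays' whole range of 0.85. The changes were -2.30 ± 0.22 (SE), -2.47 ± 0.22 and -2.50 ± 0.22.

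regucalcin encodes a calcium-binding protein of the SMP30 family. It had 3 probe sets, and they did not read alike. The brightest, 1629889_s_at (CG1803, X chromosome), gave 12.79, 12.68 and 12.56 in Canton S and 10.996, 10.90 and 10.42 in rbf120a, a change of -1.90 ± 0.33 (SE). The wtsX1Lats arrays gave 11.98, 10.96 and 10.35 (-1.58 ± 0.33), and the double mutant arrays 11.79, 11.33 and 11.004 (-1.30 ± 0.33). The mutant values were lower, but by less than for the 6 genes above, and the gap to Canton S was 0.58. The probe set 1629430_s_at read 11.61, 11.27 and 11.10 in Canton S against 9.14, 8.88 and 8.76 in rbf120a. Its wtsX1Lats arrays read 10.43, 9.34 and 7.26, and those of the double mutant 10.25, 9.44 and 9.41. Its differences from Canton S were -2.40, -2.31 and -1.63. The probe set 1638249_at lay between 4.98 and 5.30 on all arrays, below the median of all values, and differed from Canton S by -0.04, 0.01 and -0.05.

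gkt (glaikit) encodes the fly tyrosyl-DNA phosphodiesterase, which removes trapped topoisomerase from DNA ends. It too had 3 probe sets, and the size of its fall depended on which was read. The brightest, 1626850_s_at (CG8825, arm 2L), read 10.20, 10.20 and 10.13 in Canton S against 9.13, 9.20 and 9.32 in rbf120a. Its wtsX1Lats arrays read 9.62, 8.90 and 8.51, and those of the double mutant 9.20, 9.14 and 9.15. That is -0.96 ± 0.21 (SE), -1.17 ± 0.21 and -1.01 ± 0.21, the smallest changes among the 8 genes, with a gap of 0.51 between Canton S and the mutant arrays. The probe set 1624269_at gave 9.65, 10.29 and 9.65 in Canton S and 6.77, 6.68 and 7.62 in rbf120a. The wtsX1Lats arrays gave 7.40, 7.48 and 7.50, and the double mutant arrays 6.83, 6.61 and 6.46, so that its differences were -2.84, -2.40 and -3.23. The probe set 1624274_at lay between 4.18 and 4.76 on all arrays and differed by -0.09, 0.06 and -0.04. On this platform a probe set ending in _s_at can match more than 1 transcript or gene, and the transcripts that each of the 3 reads were not given in the sources used here.

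**Figure D1:**
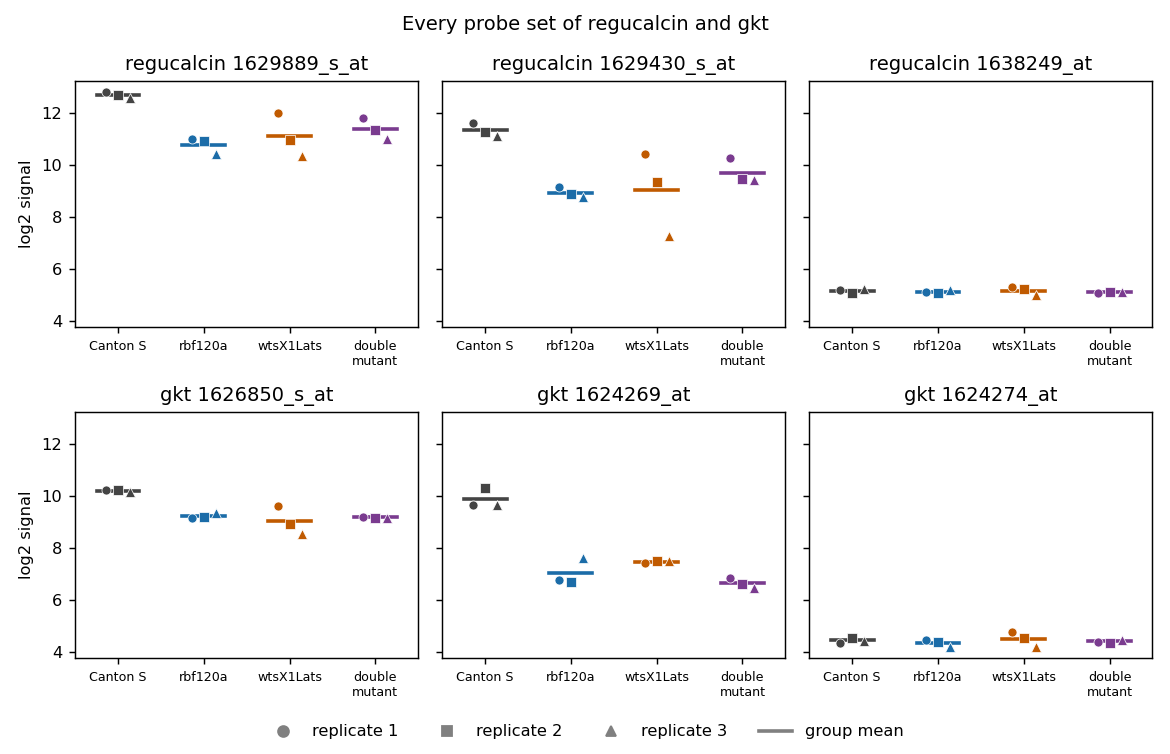
Log2 signal of the 3 probe sets of regucalcin (upper row) and of gkt (lower row) on each array. Points are arrays, with the replicate shown by the marker, and bars are group means of 3 arrays. For both genes 2 probe sets were lower in all mutant groups, and the dim one (4.98 to 5.30 for regucalcin, 4.18 to 4.76 for gkt) stayed at about the same level throughout.

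For all 8 genes, the 9 mutant arrays lay below the 3 Canton S arrays. Over all genes this held for 408 (3.4%), and since the genes were chosen on these arrays nothing is read from the count. The median change of the 8 genes was -2.56, -2.44 and -2.49 in rbf120a, wtsX1Lats and the double mutant, where the median over all 11983 genes was 0.00, 0.02 and 0.00. Adjusted p under 0.05 with a lower value was reached by 1.71%, 3.33% and 3.26% of all genes in these comparisons, and by 8, 7 and 8 of the 8 genes. With a higher value it was reached by 1.79%, 2.28% and 2.23% of all genes, and in either direction by 3.5%, 5.61% and 5.49%.

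**Figure D2:**
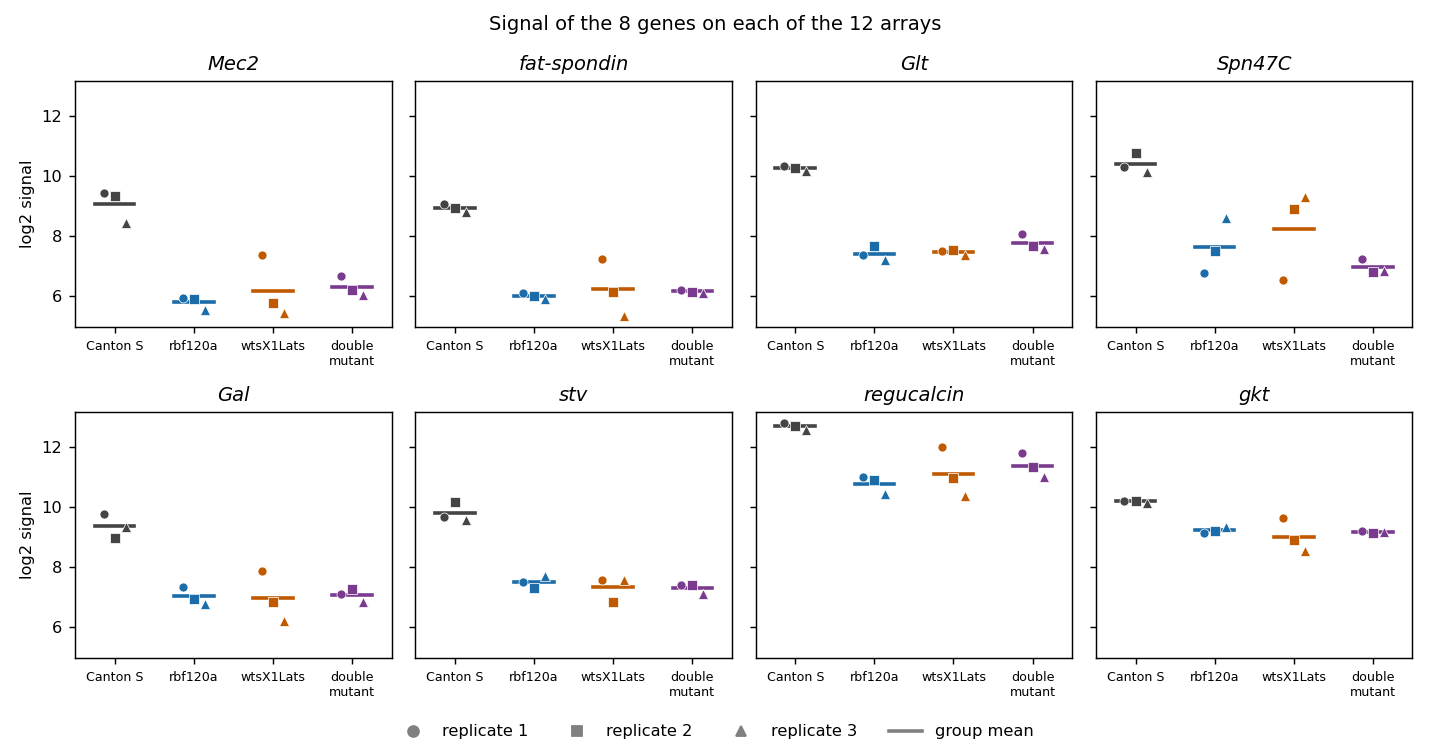
Log2 signal (vertical axis) of the 8 genes, each by its brightest probe set, in the 4 groups. Points are single arrays, with the replicate shown by the marker, and bars are means of 3 arrays. Every mutant array lies below every Canton S array, by 0.51 for gkt up to 2.10 for Glt, and the wtsX1Lats arrays of Mec2, fat-spondin and Spn47C lie far apart.

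The arrays within a group were not equally low. In wtsX1Lats, replicate 1 was the highest of its group for 5 of the 8 genes (Mec2, fat-spondin, Gal, regucalcin and gkt) and replicate 3 the lowest for 6. The median deviation of the 8 genes from their Canton S means was -1.70 in replicate 1, -2.63 in replicate 2 and -2.60 in replicate 3. In the double mutant, replicate 1 was the highest for 7 of the 8 genes, with a median deviation of -2.32 against -2.49 and -2.69 in replicates 2 and 3. Canton S replicate 3 was the lowest of its group for 7 of the 8. For Glt the SD in wtsX1Lats was 0.08, so its replicates did not share the spread seen for Mec2 (1.04) or Spn47C (1.496). The median SD of all genes in that group was 0.17. The part that RNA quality of wtsX1Lats replicate 3 plays in these values was not tested.

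The mutant groups were also compared with each other. These comparisons hold no Canton S array, but the choice of genes low in all 3 mutant groups used the same 9 mutant arrays and limits how far the groups can differ, so the count of 0 below is partly set by the choice. By limma with Benjamini-Hochberg adjustment, 0 of the 8 genes passed in each of 3 comparisons, namely double mutant with rbf120a, double mutant with wtsX1Lats, and wtsX1Lats with rbf120a. At an unadjusted p under 0.05 the counts were 1, 0 and 0. Over all genes 81 (0.676%), 0 (0%) and 120 (1%) were called, with 0.601% lower in wtsX1Lats than in rbf120a, so few genes of any kind passed these tests. At an unadjusted p under 0.05 they were 1004, 1033 and 1766.

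The 1 gene at an unadjusted p under 0.05 was Glt, which was 0.36 ± 0.15 (SE) higher in the double mutant than in rbf120a (adjusted p = 0.527, with a 95% interval of the difference from 0.03 to 0.70). Spn47C had the largest difference, 1.29 lower in the double mutant than in wtsX1Lats on average (95% interval of the change -2.62 to 0.04, adjusted p = 0.585). For Gal the intervals ran from -0.71 to 0.80, from -0.65 to 0.87 and from -0.82 to 0.69, for the double mutant against rbf120a, against wtsX1Lats, and for wtsX1Lats against rbf120a. For stv they ran from -0.68 to 0.27, from -0.50 to 0.45 and from -0.65 to 0.30. These intervals leave room for differences of nearly 1 for Gal, and they are narrower than the fall from Canton S in every mutant group. For Mec2 the upper limits reached 1.44, 1.06 and 1.31, so a difference of about 1 between its mutant levels may have gone undetected here.

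**Figure D3:**
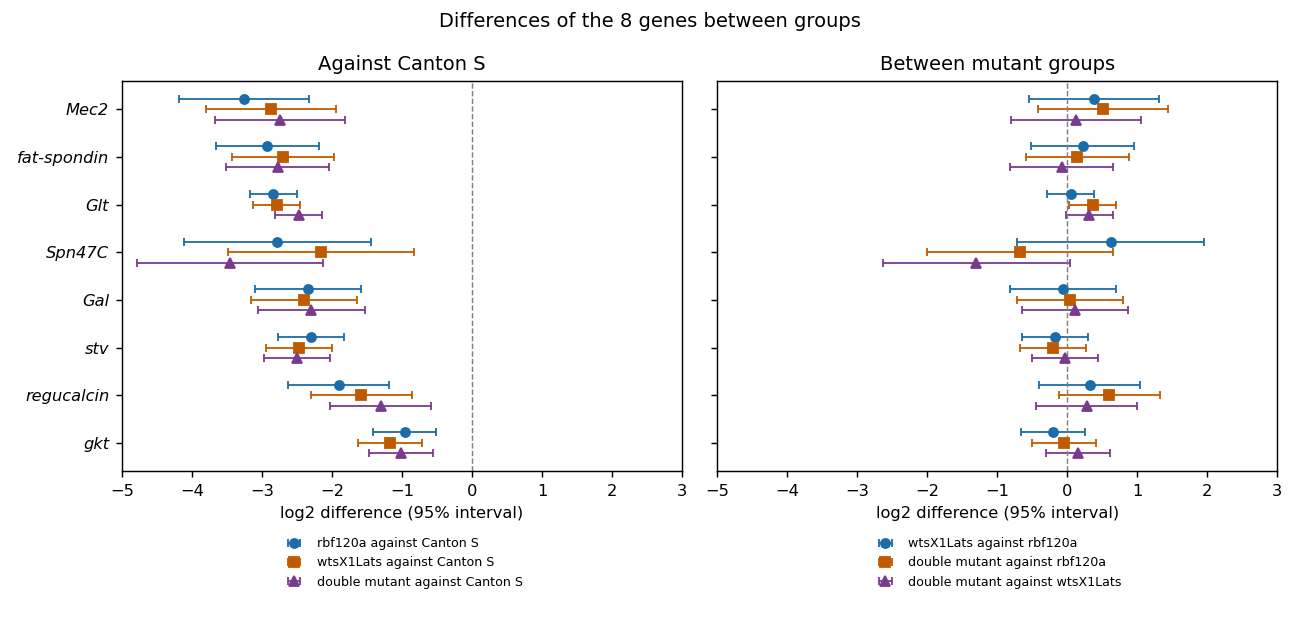
Log2 differences of the 8 genes with 95% intervals from the fit over 12 arrays, against Canton S (left) and between mutant groups (right). On the left, all points lie between -3.45 and -0.96, as the choice of genes requires; on the right, they lie between -1.29 and 0.62, and the interval excludes 0 for Glt in the double mutant against rbf120a alone, a difference whose adjusted p was 0.527.

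The mean change in the double mutant was smaller than the sum of the changes in the single mutants for each of the 8 genes. Glt changed by -2.47 in the double mutant, where the single changes add to -5.63. The same pairs of values were -2.74 and -6.13 for Mec2, -2.78 and -5.62 for fat-spondin, -2.29 and -4.74 for Gal and -2.50 and -4.77 for stv. For Spn47C they were -3.45 and -4.94, the closest in ratio. For Mec2 and fat-spondin the sum would put the level at 2.92 and 3.31, below the lowest value on any array, 3.55, so the scale itself could not have shown it. For Glt, Gal, stv and Spn47C it would put the level at 4.62, 4.62, 5.03 and 5.47, below the median of all values, where a further fall may be hard to read. For regucalcin (-1.30 and -3.48) and gkt (-1.01 and -2.13), each by its brightest probe set, the level would have been 9.20 and 8.05, well inside the scale. By 1624269_at, however, gkt changed by -2.84 and -2.40 in rbf120a and wtsX1Lats from a Canton S mean of 9.86. By that probe set the level for gkt would also lie below the median of all values. These sums use the Canton S arrays that chose the genes and were not tested.

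The genes were next set beside genes of fat body, blood cells and the pathways they belong to. The fat body list held 16 genes, of which 11 were measured. Of the 11, 0 fell in any of the 3 comparisons with Canton S by limma with Benjamini-Hochberg adjustment, and 0 were lower at an unadjusted p under 0.05. The 1 gene that rose was apolpp, which encodes the precursor of the lipid carrier lipophorin (0.57 ± 0.10 SE in rbf120a, adjusted p = 0.00769). It was a dim gene, at 4.63, 4.85 and 4.73 in Canton S and 5.14, 5.28 and 5.51 in rbf120a.

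Among the defining fat body genes, Fbp1, a receptor for storage proteins, was at 5.66, 5.83 and 6.60 in Canton S and at 5.59, 5.65 and 6.44 in rbf120a. The storage protein gene Lsp2 read 5.82, 6.15 and 7.25 in Canton S and 6.49, 6.82 and 9.76 in rbf120a, where replicate 3 alone was high, and its changes did not pass (adjusted p = 0.516, 0.894 and 0.981). Lsp1alpha, Lsp1beta, Lsp1gamma and Adh were not analysed here. The log2 of the summed signal of the 11 genes ranged from 12.56 to 13.39 in Canton S, against 12.71 to 13.19 in rbf120a, 12.99 to 13.61 in wtsX1Lats and 12.96 to 13.07 in the double mutant. These ranges overlapped, and the means of 3 of the 11 genes lay below the median of all values in each group. Several defining genes had little room to fall: in Canton S the mean was 6.03 for Fbp1, 5.62 for Fbp2, 4.74 for apolpp and 4.94 for Apoltp, and the summed signal rests mostly on the bright genes Tsf1 (12.31) and FASN1 (10.52). The part of fat body in the lower signal of fat-spondin was not tested.

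Some blood cell genes were lower in the mutants. Of 16 listed genes, all measured, 7 fell in rbf120a, 5 in wtsX1Lats and 6 with both alleles, and 0 rose. The backgrounds are the 1.71%, 3.33% and 3.26% given above. The list's median change was -0.78, -0.66 and -0.91. Without wtsX1Lats replicate 3 the counts were 8, 9 and 8, and without Canton S replicate 1 they were 3, 4 and 5. The count in rbf120a was also 3 without rbf120a replicates 1 or 2, and 4 without Canton S replicate 2.

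Among them, Hml (Hemolectin, a clotting protein of plasmatocytes) read 9.34, 10.02 and 9.02 in Canton S against 7.30, 7.49 and 7.46 in rbf120a. Its wtsX1Lats arrays read 7.28, 7.27 and 7.68, and those of the double mutant 7.81, 7.24 and 7.33. Its changes were -2.04, -2.05 and -1.999 (adjusted p = 0.000558, 0.000449 and 0.000496). Its fall was of the same order as that of stv and Gal. eater, a phagocytosis receptor, changed by -2.29 ± 0.30 (SE), -2.64 ± 0.30 and -2.33 ± 0.30 (adjusted p = 0.00104, 0.000402 and 0.000787). Sr-CI, a scavenger receptor, changed by -1.91 ± 0.35, -2.10 ± 0.35 and -1.86 ± 0.35 (adjusted p = 0.00979, 0.00472 and 0.0085). srp, which encodes the GATA factor Serpent of blood cells and fat body, fell in rbf120a (-2.01 ± 0.42, adjusted p = 0.0221) and wtsX1Lats (-1.98 ± 0.42, adjusted p = 0.0184). In the double mutant srp read 6.81, 5.66 and 4.68, its change was -1.11 ± 0.42 and its adjusted p was 0.184.

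Not every blood cell gene passed: Pxn, crq, He, ush, PPO2, lz, atilla and NimC1 did so in none of the 3 comparisons. All but NimC1 were nevertheless lower on average, so that 15 of the 16 genes had a negative change in each comparison. By limma at an unadjusted p under 0.05, 11, 10 and 11 of the 16 were lower. Of all genes 12.5%, 20.7% and 16.4% reached that p in either direction. NimC1, a plasmatocyte receptor, read 5.86, 5.87 and 5.86 in Canton S and between 5.86 and 6.45 in the mutants, near the median of all values. The log2 of the summed signal of the 16 genes was 13.06 to 13.80 in Canton S and 12.36 to 12.57 in rbf120a. It was 12.41 to 13.02 in wtsX1Lats and 12.30 to 12.72 in the double mutant. Canton S overlapped no mutant group, but its lowest array (13.06) was close to the highest of wtsX1Lats (13.02). The sum weighs most on the bright genes SPARC, PPO2, PPO1 and atilla (Canton S means 10.94, 10.63, 10.24 and 9.82), of which PPO2 and atilla passed in no comparison. Which cells gave the signal of a listed gene, lz included, is not known from these bulk samples. The part of blood cells in the lower signal of the 8 genes was not tested.

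Matrix genes were examined because Glt and fat-spondin encode matrix proteins. Of 15 measured genes of basement membrane and secreted matrix, 2 fell in rbf120a, 4 in wtsX1Lats and 6 with both alleles, and 0 rose. Among all genes measured, 1.71%, 3.33% and 3.26% fell. SPARC, a collagen-binding protein, was called in each, at -0.70 ± 0.13 (SE), -0.88 ± 0.13 and -1.19 ± 0.13 (adjusted p = 0.0103, 0.00224 and 0.000251). vkg, a collagen IV chain, changed by -0.71 ± 0.17, -0.63 ± 0.17 and -0.98 ± 0.17 (adjusted p = 0.0406, 0.0503 and 0.00522). mspo (M-spondin), a relative of fat-spondin, changed by -0.47 ± 0.16, -0.85 ± 0.16 and -1.003 ± 0.16 (adjusted p = 0.193, 0.0104 and 0.00383). Tsp (thrombospondin) changed by -0.48 ± 0.15, -0.65 ± 0.15 and -0.67 ± 0.15 (adjusted p = 0.121, 0.0243 and 0.0203). The collagen genes, SPARC and Pxn are also in the blood cell list and not in the fat body list. Whether blood cells, fat body or disc cells gave their signal cannot be told from these samples. Without Canton S replicate 1 the counts were 0, 3 and 3, and without wtsX1Lats replicate 3 they were 3, 8 and 8. The count in rbf120a was also 0 without rbf120a replicate 2, and 1 without Canton S replicates 2 or 3, rbf120a replicates 1 or 3, or the double mutant's replicates 2 or 3. The count in the double mutant was 3 without any 1 of its own arrays.

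Genes of lysosomal hydrolases were set beside Gal. Of 14 measured, 3 fell in rbf120a, 3 in wtsX1Lats and 2 with both alleles, and 0 rose, where 1.71%, 3.33% and 3.26% of all genes fell. Ect3, a beta-galactosidase relative of Gal, read 7.29, 7.28 and 6.99 in Canton S and between 5.50 and 5.89 on all mutant arrays, a change of -1.37 ± 0.11 (SE), -1.51 ± 0.11 and -1.57 ± 0.11 (adjusted p = 3.44e-05, 1.29e-05 and 8.94e-06). Hexo2, a hexosaminidase, changed by -1.18 ± 0.23, -1.07 ± 0.23 and -1.01 ± 0.23 (adjusted p = 0.0144, 0.0194 and 0.024). LManI, a lysosomal mannosidase, changed by -0.88 ± 0.21, -0.89 ± 0.21 and -0.60 ± 0.21 (adjusted p = 0.046, 0.0331 and 0.15). LManII, another mannosidase, was at -1.31 ± 0.37, -1.15 ± 0.37 and -0.43 ± 0.37 and did not pass (adjusted p = 0.0939, 0.0997 and 0.711). The list's median change was -0.06, -0.04 and -0.09, near that of all genes, and the bright lysosomal genes cathD, a cathepsin, and Lamp1, a membrane protein, were at 0.05 and 0.03 in rbf120a. Without Canton S replicate 1 the counts fell to 1, 1 and 1. They were also 1 in rbf120a without its replicates 2 or 3, 1 in wtsX1Lats without its replicate 2, and 1 in the double mutant without Canton S replicate 3 or the double mutant's replicates 2 or 3.

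No other listed serpin passed the test as lower. Of 28 measured, 0 fell in the 3 comparisons by limma with Benjamini-Hochberg adjustment (2, 1 and 1 at an unadjusted p under 0.05), and the median change was 0.02, 0.00 and -0.02. Spn42De rose in rbf120a (1.38 ± 0.21 SE, adjusted p = 0.00307) and wtsX1Lats (0.84 ± 0.21, adjusted p = 0.0399), and was at 0.58 ± 0.21 in the double mutant (adjusted p = 0.161). Spn27A, an inhibitor of the melanization and Toll cascades, was at -0.54 ± 0.14, -0.24 ± 0.14 and -0.37 ± 0.14 and did not pass (adjusted p = 0.058, 0.372 and 0.182).

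In a list of chaperone and related genes 0 passed as lower either. The list does not cover every chaperone, and 15 of its 25 genes were measured. Hsp83, Hsp22, Hsp23 and the genes named Hsp70 were not analysed here. Of the 15 genes 0 fell (0 at an unadjusted p under 0.05 in each comparison), and the median change was 0.07, 0.04 and 0.14. Hsc70-2, an Hsc70 family member, rose in wtsX1Lats (3.16 ± 0.20 SE, adjusted p = 3.51e-06) and in the double mutant (3.19 ± 0.20, adjusted p = 3.64e-06). The heat-inducible Hsp68 read 8.53, 7.98 and 8.64 in Canton S and 10.82, 10.40 and 10.49 in rbf120a. Its changes of 2.18 ± 0.57, 1.01 ± 0.57 and 2.13 ± 0.57 did not pass (adjusted p = 0.0641, 0.353 and 0.0517). Of 11 muscle genes measured, 0 fell in rbf120a, 0 in wtsX1Lats and 1 with both alleles (0, 1 and 1 at an unadjusted p under 0.05). That gene was TpnC73F, a troponin C (-0.72 ± 0.16, adjusted p = 0.0255). Muscle genes were bright: the log2 of the summed signal of the 11 genes was 14.79 to 15.61 in Canton S. It was 15.23 to 15.31 in rbf120a, 14.26 to 15.87 in wtsX1Lats and 14.65 to 14.93 in the double mutant. The same sum for the 12 eye disc genes was 14.10 to 14.25 in Canton S and 13.53 to 14.31 in wtsX1Lats. The part of muscle in the lower signal of stv was not tested.

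Mec2 is known from nephrocytes, the filtering cells of the fly, and their genes were examined next. Of 8 nephrocyte genes 0 fell and 0 rose in the 3 comparisons (0, 3 and 1 lower at an unadjusted p under 0.05). The slit diaphragm gene sns was at -0.09 ± 0.16 (SE), -0.01 ± 0.16 and -0.27 ± 0.16, and the endocytic receptor gene Cubn at 0.19 ± 0.21, 0.11 ± 0.21 and 0.29 ± 0.21. Several of these genes had little room to fall: in Canton S the mean was 5.01 for Amnionless, 5.82 for Klf15, 6.39 for sns and 6.62 for Cubn. Brighter were kirre (8.78), hbs (10.12), rst (11.94) and pyd (12.24), but whether nephrocytes or disc cells gave their signal is not known. The list therefore cannot show whether nephrocytes were fewer. The part of nephrocytes in the lower signal of Mec2 was not tested. For gkt, 16 genes of DNA strand break repair were measured. By limma with Benjamini-Hochberg adjustment 0 fell and 0 rose (0 lower and 7, 3 and 5 higher at an unadjusted p under 0.05), and the list's median was 0.23, 0.08 and 0.30. That unadjusted p was reached by 12.5%, 20.7% and 16.4% of all genes in either direction.

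**Figure D4:**
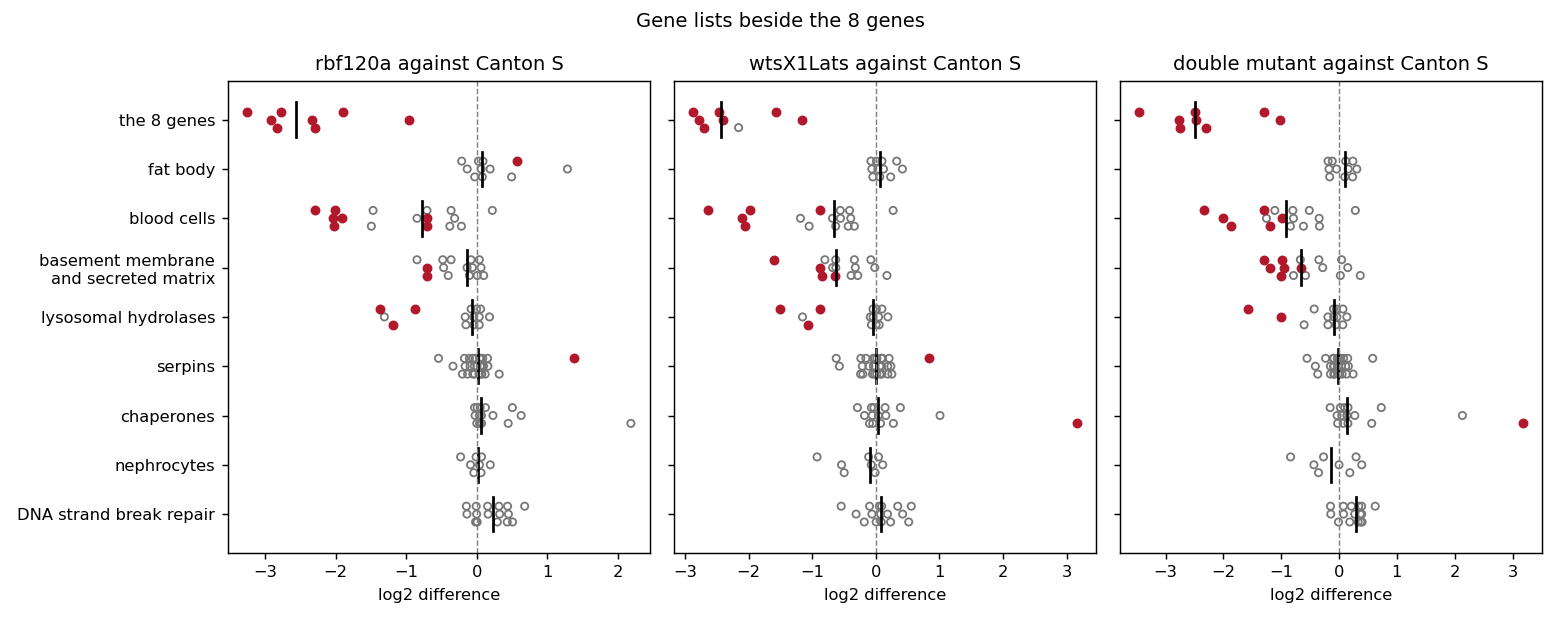
Log2 differences from Canton S (horizontal axis) of the 8 genes and of the genes in 8 lists, in rbf120a, wtsX1Lats and the double mutant. Each point is a gene, filled red where adjusted p was under 0.05, and black bars are medians. The 8 genes lie low by choice; the blood cell list has a median of -0.78, -0.66 and -0.91, while the medians of the fat body list are 0.08, 0.06 and 0.10.

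Likeness of pattern was measured as the root mean square difference of log2 values over the 12 arrays, after each gene was centred on its own mean. It includes the step from Canton S to the mutants on which the 8 genes were chosen, so any gene with a fall of similar size comes out near, and the neighbours are given as a description. Among the 28 pairs of the 8 genes, Mec2 and fat-spondin (0.29) and fat-spondin and Gal (0.29) were the most alike, followed by Glt and stv (0.38). Spn47C differed most from the others, with 0.91 to its nearest, stv. Among other genes with a name, the nearest to Glt were the blood cell genes eater (0.35) and Hml (0.40), followed by Cpr47Eb (0.48). Hml (0.30) and NimB4 (0.39) were the nearest to stv.

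Mec2, fat-spondin, Gal and regucalcin shared a neighbour, Had2. Had2 was the nearest gene to Mec2 (0.58), fat-spondin (0.50) and regucalcin (0.21) and the second nearest to Gal (0.40), after yellow-f (0.40). Had2 changed by -2.04, -1.67 and -1.66 in the 3 comparisons. After Had2, the nearest to Mec2 were eater (0.61) and Cpr47Eb (0.64), and the nearest to fat-spondin were yellow-f (0.56) and eater (0.56). LKRSDH, which encodes an enzyme of lysine breakdown, was the nearest to gkt (0.20), followed by firl (0.21) and Hexo2 (0.23), by its brightest probe set alone. For Spn47C the nearest gene, the cuticle gene Cpr47Eb, stood at 0.81, followed by the blood cell genes Sr-CI (0.87) and Hml (0.88). The median difference to all named genes lay between 0.54 for gkt and 1.503 for Spn47C.

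The 8 genes lie on the X chromosome (Mec2, regucalcin), arm 2L (Glt, Gal, gkt), arm 2R (fat-spondin, Spn47C) and arm 3L (stv). In Release 6 gene order, 16 measured genes flank them. Of these, CG9098, beside Gal, was lower on average in all 3 comparisons with Canton S and was called in 2 of the 3 comparisons (-0.18, -0.49 and -0.54), and CG10089, beside stv, was called in 3 and was higher (0.96, 0.57 and 0.94). The other 14 were called in none. Obp47a, before Spn47C, was at 0.39, 1.00 and -0.31, and Sema1a, before Glt, at 0.20, 0.10 and 0.70. These flanking genes were compared on the same Canton S arrays.

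The rule reached well beyond the 8 genes. Of the other 57 named genes lower in all 3 mutant groups, 4 are in the blood cell list (Hml, eater, Sr-CI and SPARC), 2 in the lysosomal list (Ect3 and Hexo2) and 0 in the fat body list. A place in a list does not show which cells gave a gene's signal. By number, the 133 genes included 33 of 2205 measured on arm 2L, 24 of 2428 on 2R, 32 of 2344 on 3L, 25 of 2974 on 3R and 18 of 1873 on the X chromosome. They were thus found on every large arm, including X, where Rbf lies, and 3R, where wts lies.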

How the data were processed

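Log2 signals of 18952 probe sets on 12 arrays were deposited by the authors in a single table; that the values are log2 was read from their range (3.55 to 14.53). How probes were summarised and arrays normalized was not given in the sources used here. Array medians lay between 5.76 and 5.86, and the sorted values of an array lay on average 0.03 from the mean of all arrays, so the deposited arrays share nearly 1 distribution. Detection calls and scanner files were not used here, and precision is limited by the number of arrays. RNA was isolated with Trizol and a Qiagen RNeasy kit and labelled as biotinylated cRNA, per the labels' protocols.

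Control probe sets (183) were left out. Names came from the platform annotation, updated by gene number to Release 6 symbols: 13647 probe sets had 1 gene, 402 several and 4720 none. Each of the 11983 genes was represented by the probe set of highest mean signal. Listed genes not named there were not analysed here. One limma fit (version 3.58.1, R 4.3.3; lmFit, eBayes with a variance trend) of the 4 group means, with 8 residual degrees of freedom, gave the changes. Its p-values carry Benjamini-Hochberg adjustment over the 11983 genes. Errors of changes are SEs of this fit, which pools the spread of the 4 groups. The fit was also run on simulated data in which a gene had the same spread in every group. The real groups differed in spread, so that run cannot show how the fit behaves here. Same-numbered arrays of rbf120a and wtsX1Lats deviated from their group means together (r = 0.22, 0.30 and 0.22 for replicates 1, 2 and 3). The labels state no pairing and differently numbered arrays were not compared, so these values cannot show that the groups are paired.

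The 8 genes, the gene lists and the tests were chosen with earlier results of these data known. Of each list the text names up to 4 genes with the smallest p in rbf120a against Canton S. Lsp1alpha, Lsp2, Fbp1, apolpp, Hml, eater, NimC1 and srp are named in any case. For likeness the text names genes from among the 3 nearest named genes. cathD, Lamp1, Hsc70-2, the flanking genes and the listed genes given for their level in Canton S were named after their values were seen. The alternatives were each array left out, a replicate block, no variance trend, the mean of a gene's probe sets, a filter on dim genes, quantile normalization, the arrays of 2 groups alone and array weights.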

Additional observations from a re-analysis of the deposited data

How the results depend on the processing

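The lower level of each of the 8 genes in each mutant group kept its direction with each of 12 arrays left out and under 5 other settings (replicate block, no variance trend, mean of probe sets, dim genes dropped, quantile normalization), with changes from -3.58 to -2.49 for Mec2, -3.20 to -2.25 for fat-spondin, -2.96 to -2.38 for Glt, -3.59 to -1.30 for Spn47C, -2.85 to -2.02 for Gal, -2.61 to -2.12 for stv, -2.02 to -0.99 for regucalcin and -1.47 to -0.92 for gkt. Every setting reuses arrays on which the 8 genes were chosen, so keeping the direction or the rule is partly set by that choice. Mec2, fat-spondin, Glt, Gal and stv met the rule under all of these settings, except that Mec2 and fat-spondin are not tested once dim genes are dropped. regucalcin and gkt left it in several; the adjusted p of regucalcin reached 0.173 in the double mutant without its replicate 3, and that of gkt reached 0.105 in rbf120a without rbf120a replicate 1 (0.101 without Canton S replicate 1), where gkt was called in 11 of 17 settings. Spn47C met it without wtsX1Lats replicate 3 and with the replicate block. Between mutant groups 0 of the 8 genes were called under any alternative.

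The number of genes lower in all 3 groups was 133, and 70 to 153 with 1 array left out (fewest without Canton S replicate 1). With 1 array left out, genes changed against Canton S were 197 to 632 in rbf120a, 297 to 1596 in wtsX1Lats and 297 to 1080 in the double mutant, against 420, 672 and 658; the highest came without wtsX1Lats replicates 1, 3 and 1. Keeping only genes above the median level left 51 lower in all 3 groups, and 235 and 425 changed in rbf120a and the double mutant. With the arrays of the 2 groups alone, 62 were lower in all 3, 181 changed in wtsX1Lats and 1076 in the double mutant. With array weights, whose estimate did not converge, 367 were lower in all 3, and 3214 and 4464 changed in rbf120a and the double mutant.

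Over all 18 same-numbered pairs the deviations from group means correlated between -0.30 and 0.31, so the numbers do not pair all groups. Between rbf120a and wtsX1Lats alone the correlation was positive for every replicate number, which cannot show a pairing. With the replicate block, fitted over all groups, 0 of the 8 genes were called between these 2 groups. With the replicate block 127 genes were lower in all 3 groups, and 388, 674 and 620 changed against Canton S. The text's gene list counts without single arrays were chosen after seeing the data.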
